A study of Mus musculus with 12 samples.

Results

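The expression of 10 chemokine genes of the colonic epithelium was followed: Ccl20, Ccl25, Ccl28, Cxcl1, Cxcl2, Cxcl5, Cxcl9, Cxcl10, Cxcl16 and Cx3cl1. They were chosen by symbol, are 10 of the 46517 gene IDs in the count tables, and all 10 passed the filter on low counts. RNA was sequenced from colonic intestinal epithelial cells of C57BL/6 mice aged 7 to 9 weeks, in 4 groups of 3 biological replicates. The groups were untreated wild type (WT), WT given dextran sulfate sodium (DSS) for 48 h, untreated Nfkb2-/- (KO), and KO given DSS for 48 h. DSS is a polysaccharide that injures the colonic epithelium, and Nfkb2 encodes the p100/p52 subunit of NF-kB. The labels name no promoter or cell type that restricts the Nfkb2 deletion, and the DSS dose is not given in the sources used here. EDTA released the cells from the colon, and per the labels about 90% of them were EpCAM-positive and lacked CD45.2 in typical preparations.

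Chemokines are small secreted proteins that bind receptors on leukocytes and guide their migration. Epithelial cells of the gut release some of them constitutively and others after stimulation through NF-kB or interferon pathways. Cxcl1, Cxcl2 and Cxcl5 attract neutrophils through Cxcr2. Ccl20 acts on Ccr6 of lymphocytes and dendritic cells, Ccl25 on Ccr9 and Ccl28 on Ccr10 of lymphocytes and plasma cells. Cxcl9 and Cxcl10 are interferon-inducible ligands of Cxcr3. Cxcl16 and Cx3cl1 are made as membrane-anchored proteins that bind Cxcr6 and Cx3cr1 and can be shed by the proteases Adam10 and Adam17.

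Total counts ranged from 5595909 to 8117740 per sample, so that 3 counts, taken as the floor of detection, corresponded to 0.356 to 0.530 CPM (counts scaled to the library size with TMM factors). Nfkb2 was present at 211 to 346 counts in the WT samples and at 87 to 143 counts in the KO samples, and its level was lower in KO in both states (log2 fold change -1.36 untreated and -1.28 under DSS, edgeR adjusted p = 0.00123 and 0.00224). The sample codes in the labels run through all WT samples and then all KO samples, so code order and genotype cannot be told apart. Epithelial markers summed to 24692 to 33096 CPM in WT and 25212 to 26753 in KO without treatment, and to 25481 to 26609 in WT and 21735 to 23472 in KO with DSS. The sum in KO with DSS thus lay below the other groups without overlap. Its largest part was Krt8, with group means of 10152 to 12678 CPM, and the markers did not move as 1. Krt20 fell under DSS in both genotypes (-1.33 in WT and -1.34 in KO on the log2 scale, edgeR adjusted p = 5.15e-06 and 2.09e-05). Vil1 was lower in KO than in WT under DSS (-0.55, edgeR adjusted p = 0.0386). Epcam and Cdh1 were not called in any comparison. Pan-leukocyte markers (Ptprc, Laptm5, Coro1a, Cd52, Cd53 and Arhgdib) summed to 12.5 to 25.9 CPM in WT and 69.4 to 83.9 in KO without treatment, and to 33.9 to 41.0 in WT and 97.4 to 125 in KO with DSS. In such bulk samples fewer cells of a type and less RNA per cell cannot be told apart.

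Per kilobase of exon, the 10 genes fell into 2 tiers. Ccl28 and Cx3cl1 stood far above the others in every group. In untreated WT Ccl28 was at 63.8 ± 9.28 (SD, n = 3) CPM per kb and Cx3cl1 at 42.2 ± 2.62, and their ranges did not overlap. The next gene was Cxcl16 at 1.95 ± 0.156, and from it down to Cxcl5 at 0.313 ± 0.263 each neighbour in the order overlapped the one before. Under DSS in WT, Ccl20 came next at 7.03 ± 1.06, above Cxcl1 at 5.16 ± 0.153 without overlap. Cxcl10, Cxcl16, Cxcl5, Cxcl2 and Cxcl9 then followed between 4.71 and 2.75, each overlapping its neighbour, and Ccl25 was last at 0.564 ± 0.0984, apart from the rest.

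In untreated KO, Ccl20 came after these 2 at 16.4 ± 3.19 CPM per kb, followed by Cxcl1 at 5.48 ± 1.34, Cxcl10 at 4.65 ± 1.45 and Cxcl16 at 3.68 ± 0.275. Cxcl9, Cxcl5 and Cxcl2 lay between 1.46 and 0.795, below Cxcl16 and, taken as neighbours, not apart from one another. In KO under DSS, Cxcl10 at 13.5 ± 3.01 and Ccl20 at 13.4 ± 0.821 overlapped. Cxcl2 at 0.935 ± 0.835 and Cxcl5 at 0.898 ± 0.543 stayed in the lower part of the order, below Cxcl9 at 2.81 ± 0.613. Ccl25 was last in that group too, at 0.320 ± 0.186.

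**Figure D1:**
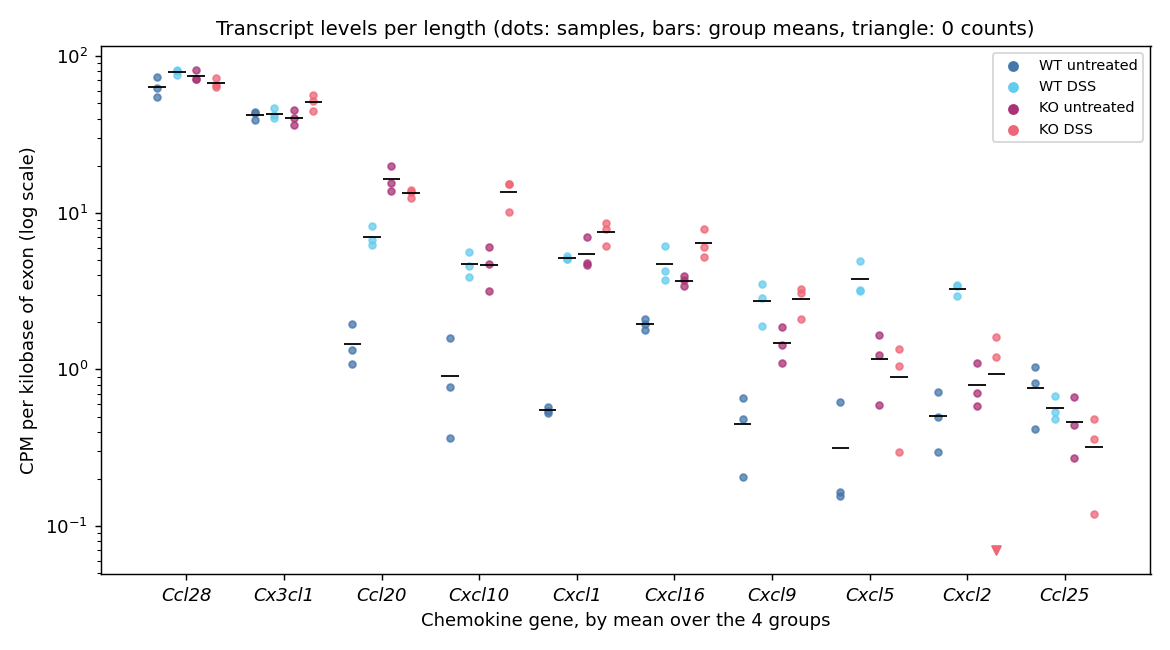
Level of the 10 chemokines in each sample (dots) in CPM per kilobase of exon on a log axis, with the means of the 4 groups (bars) and a triangle for the sample with 0 counts. Ccl28 (63.8 to 79.1 in the group means) and Cx3cl1 (40.6 to 50.7) lie above the 8 other genes in every group.

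The number of chemokines past the threshold (edgeR adjusted p under 0.05) differed between the 5 comparisons. Under DSS in WT, 6 of 10 were called, all of them higher, where 6.30% of all 12522 tested genes were called (2.80% higher and 3.50% lower). Under DSS in KO, 1 of 10 was higher, against 3.92% of all genes (1.88% higher and 2.04% lower). In untreated KO against untreated WT, 4 of 10 were higher, against 3.48% of all genes (1.72% higher and 1.76% lower). In KO against WT under DSS, 2 of 10 were higher, against 3.11% of all genes (1.77% higher and 1.34% lower).

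The interaction, the DSS effect of KO less that of WT, was called for 3 of 10 chemokines, all negative, against 1.70% of all genes (0.527% negative and 1.17% positive). The median log2 fold change over the 10 genes was 2.31 for DSS in WT, 0.27 for DSS in KO, 1.31 for untreated genotypes, 0.13 for genotypes under DSS and -1.25 for the interaction. The median over all tested genes lay between -0.0066 and 0.015 in the same 5 comparisons. Both DSS comparisons share their samples with the genotype comparisons, so the 5 counts are not independent.

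**Figure D2:**
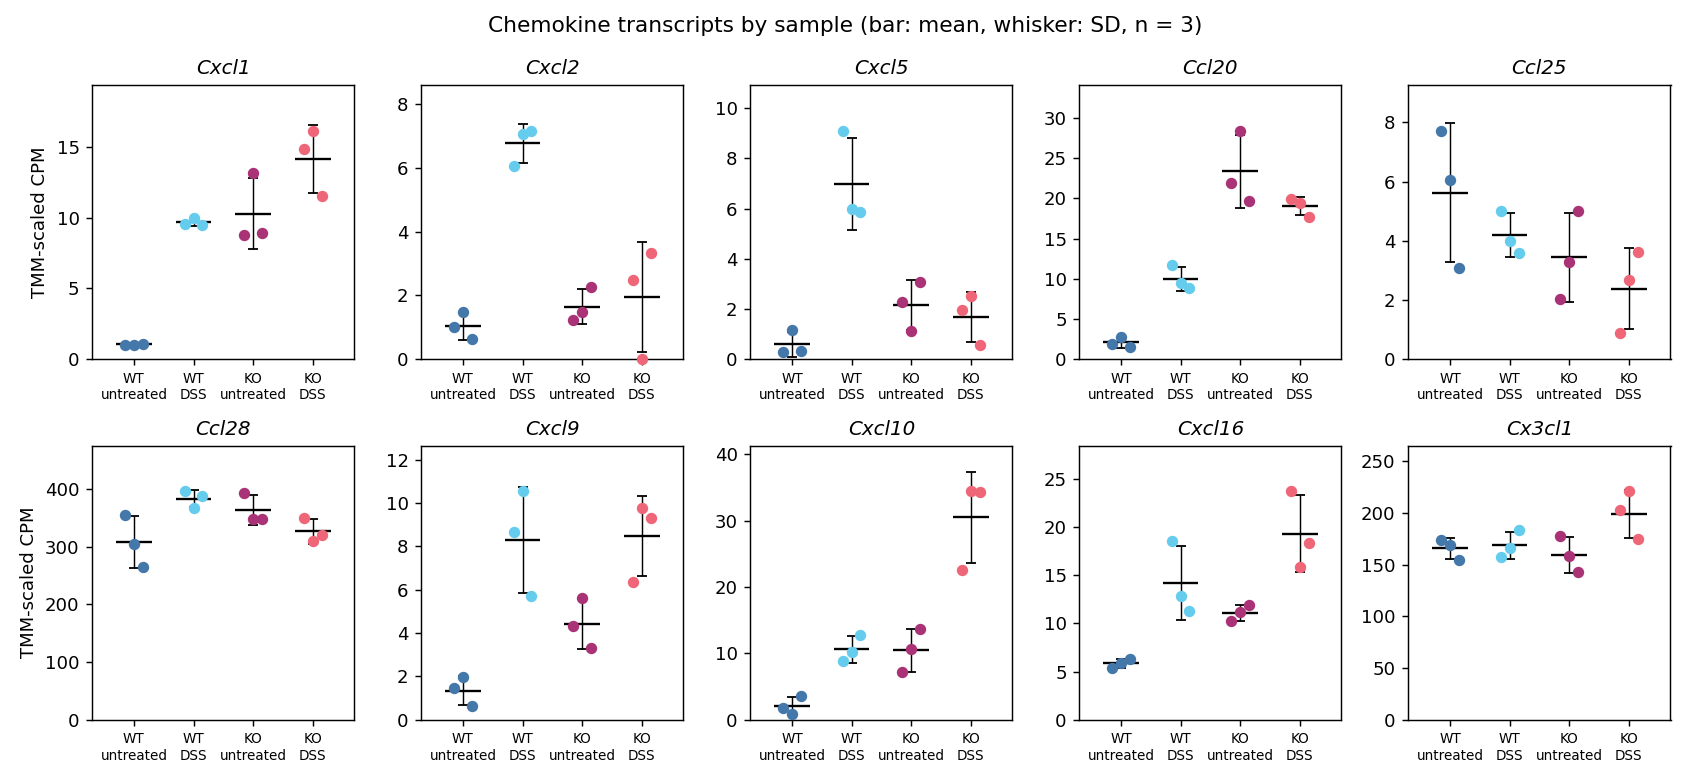
TMM-scaled CPM of each chemokine in each sample (dots) with group means (bars) and SD (whiskers), 3 samples per group. Cxcl1 and Ccl20 are lowest in untreated WT, as are Cxcl9, Cxcl10 and Cxcl16. Cxcl2 and Cxcl5 are highest in WT under DSS, and the 4 groups lie close together for Ccl28 and for Cx3cl1.

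Cxcl1 and Ccl20 shared 1 pattern: low in untreated WT, higher in WT under DSS, and already high in untreated KO. This was not theirs alone, as untreated WT also lay below every other sample for Cxcl9, Cxcl10 and Cxcl16. Cxcl1 (ENSMUSG00000029380.11; GRCm38 chr5:90891241-90893115, plus strand) attracts neutrophils. It was at 1.02, 0.984 and 1.08 CPM in untreated WT and at 9.57, 10.001 and 9.46 CPM in WT under DSS. In untreated KO it was at 8.75, 13.2 and 8.91 CPM, and in KO under DSS at 14.9, 16.2 and 11.5 CPM. The untreated WT samples lay below every other sample.

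Cxcl1 rose 9.26-fold under DSS in WT (log2 fold change 3.21 with SE 0.32, edgeR adjusted p = 1.41e-05). It was 9.84-fold higher in untreated KO than in untreated WT (log2 fold change 3.30 with SE 0.32, edgeR adjusted p = 2.43e-05). Its DSS change in KO was 0.46 on the log2 scale (SE 0.25, 95% interval -0.08 to 1.00, edgeR adjusted p = 0.417), and the interaction was -2.75 (SE 0.41, edgeR adjusted p = 0.00187). Under DSS the genotypes did not overlap, with a difference of 0.55 that did not pass (edgeR adjusted p = 0.341).

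Ccl20 (ENSMUSG00000026166.13; chr1:83116766-83119167, plus strand), the ligand of Ccr6, was at 1.89, 2.79 and 1.55 CPM in untreated WT and at 11.7, 9.47 and 8.81 CPM in WT under DSS. It was at 21.9, 28.4 and 19.7 CPM in untreated KO and at 19.98, 19.4 and 17.7 CPM in KO under DSS. All KO samples lay above all WT samples, and the 2 KO groups overlapped.

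Ccl20 rose 4.80-fold under DSS in WT (log2 fold change 2.26 with SE 0.28, edgeR adjusted p = 0.000126) and was 11.2-fold higher in untreated KO than in untreated WT (3.49 with SE 0.28, edgeR adjusted p = 5.09e-06). In KO its DSS change was -0.30 on the log2 scale (SE 0.23, 95% interval -0.79 to 0.20, edgeR adjusted p = 0.608), and the interaction was -2.56 (SE 0.36, edgeR adjusted p = 0.00130). Under DSS it was 0.93 higher in KO on the log2 scale (SE 0.24, edgeR adjusted p = 0.0498). That last call was lost without the filter on low counts (edgeR adjusted p = 0.0721) and in 10 of 12 fits that left out 1 sample.

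The pair also led the correlations among the 10 genes. Over the 12 samples, the log2 CPM of Ccl20 and Cxcl1 gave r = 0.94, that of Cxcl1 and Cxcl10 0.90, and that of Cxcl1 and Cxcl2 only 0.23. These values describe 12 libraries of 4 groups and share group differences and depth.

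Promoter sequence was taken from RefSeq (GRCm38.p6) for 8 of the 10 genes, as the 250 bases before the start. A pair of patterns of the kappa B site bound by NF-kB were searched on both strands, a loose form (GGG, then 5 bases of any kind, then CC), which 45.8% of 32851 promoters of that length hold, and the kappa B consensus, which 3.90% hold. Matches of the first pattern overlap those of the second. The consensus was matched in 4 of the 8 promoters, those of Ccl20, Cxcl1, Cxcl2 and Cxcl10, and the loose pattern also in those of Ccl28 and Cxcl9. The 170 bases before the start are shown for the 4, with the loose matches in capitals, because these genes are compared in the results on both sides of this point.
Ccl20 (chr1:83116596-83116765, plus strand): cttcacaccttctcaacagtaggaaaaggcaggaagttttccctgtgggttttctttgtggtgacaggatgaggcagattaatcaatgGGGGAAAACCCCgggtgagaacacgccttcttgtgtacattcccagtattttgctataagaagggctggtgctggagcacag
Cxcl1 (chr5:90891075-90891244, plus strand): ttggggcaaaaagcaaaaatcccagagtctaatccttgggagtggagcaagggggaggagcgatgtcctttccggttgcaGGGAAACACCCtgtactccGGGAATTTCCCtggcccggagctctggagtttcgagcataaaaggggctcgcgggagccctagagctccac
Cxcl2 (chr5:90903729-90903898, plus strand): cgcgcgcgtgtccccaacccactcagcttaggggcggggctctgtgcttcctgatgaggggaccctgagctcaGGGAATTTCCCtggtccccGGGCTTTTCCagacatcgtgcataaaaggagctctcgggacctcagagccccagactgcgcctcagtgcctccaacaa
Cxcl10 (chr5:92348890-92349059, minus strand): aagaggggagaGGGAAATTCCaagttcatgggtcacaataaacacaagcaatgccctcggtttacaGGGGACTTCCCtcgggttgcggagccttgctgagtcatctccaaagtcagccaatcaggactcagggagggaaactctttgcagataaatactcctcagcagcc
Counted from the RefSeq start, the consensus lay at -71 to -62 in Cxcl1 and at -97 to -88 in Cxcl2, with the same letters GGGAATTTCC, and at -159 to -150 and -103 to -94 in Cxcl10. In Ccl20 it lay on the other strand at -80 to -71. The Cxcl10 window also held the interferon response element-like pattern (TTTC, then 2 bases of any kind, then TTTC), searched on both strands and present in 2.98% of promoters, on the other strand at -213 to -204. Each match is a description of letters and not of binding.

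Cxcl2 and Cxcl5, the other 2 ligands of Cxcr2, were highest in WT under DSS. Cxcl2 (ENSMUSG00000058427.9; chr5:90903871-90905938, plus strand) was at 1.02, 1.48 and 0.618 CPM in untreated WT and at 6.07, 7.07 and 7.18 CPM in WT under DSS. It was at 1.21, 1.46 and 2.26 CPM in untreated KO and at 2.48, 0 and 3.33 CPM in KO under DSS, where the sample at 0 counts allowed up to 0.445 CPM. WT under DSS did not overlap any other group.

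Cxcl2 had a log2 fold change of 2.69 under DSS in WT (SE 0.79), which did not pass (edgeR adjusted p = 0.0597). It passed without the KO DSS sample that had 0 counts (edgeR adjusted p = 0.00345), without the filter on low counts (0.000935), with only the 2 WT groups in the fit (0.0103) and in DESeq2 (adjusted p = 0.00853). In KO its DSS change was 0.23 (SE 0.77, 95% interval -1.41 to 1.87, edgeR adjusted p = 0.930), and the difference between genotypes under DSS was -1.80 (SE 0.74, edgeR adjusted p = 0.261). The interaction was -2.46 (SE 1.10, 95% interval -4.81 to -0.12) and did not pass (edgeR adjusted p = 0.436). Of the 50-base words in its exons, 5.84% also occur in Cxcl3, which had 0 to 1 counts.

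Cxcl5 (ENSMUSG00000029371.7; chr5:90759360-90761624, plus strand) was at 0.291, 1.15 and 0.309 CPM in untreated WT (2, 7 and 2 counts) and at 9.11, 6.001 and 5.87 CPM in WT under DSS. It was at 2.29, 1.10 and 3.09 CPM in untreated KO and at 1.94, 2.52 and 0.554 CPM in KO under DSS. Each WT sample under DSS lay above all 9 other samples.

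Cxcl5 rose 11.9-fold under DSS in WT (log2 fold change 3.57 with SE 0.69, 95% interval 2.09 to 5.04, edgeR adjusted p = 0.00479). Untreated WT had 2 to 7 counts beside a floor of 3, so the size of this fold is imprecise. In KO its DSS change was -0.38 (SE 0.62, 95% interval -1.71 to 0.96, edgeR adjusted p = 0.852), and the interaction was -3.94 (SE 0.93, edgeR adjusted p = 0.0463). The interaction call was lost with the replicate block (edgeR adjusted p = 0.0878) and in 10 of 12 fits that left out 1 sample. The difference between genotypes under DSS was -2.06 (SE 0.61, edgeR adjusted p = 0.0939) and passed in DESeq2 (adjusted p = 0.0334).

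Neutrophil markers (S100a8, S100a9, Ly6g, Cxcr2, Csf3r, Retnlg and Mpo) were read next to these 3 ligands, and their part in the ligand levels was not tested. The 7 genes summed to 18.2 to 60.2 CPM in WT and 44.2 to 68.6 in KO without treatment, and to 30.7 to 37.9 in WT and 19.4 to 33.8 in KO with DSS. Of them 2, Ly6g and Csf3r, were tested in edgeR and 0 called in any comparison. For Ly6g the unadjusted p of edgeR was under 0.05 under DSS in KO and not elsewhere. Ly6g made up most of the sum, with group means of 42.3, 31.7, 53.2 and 23.8 CPM in the order untreated WT, DSS-treated WT, untreated KO, DSS-treated KO, and each other gene averaged under 4 CPM. The group means of S100a8, S100a9 and Retnlg were at most 0.757, 0.145 and 0.100 CPM, and Mpo was at 0 in all samples. The sum thus mostly shows 1 gene and says little about neutrophils. Under DSS in KO, Ly6g changed by -1.15 on the log2 scale (edgeR adjusted p = 0.115). Csf3r went the other way, with 3 to 8 counts in untreated KO and 17 to 34 in KO under DSS. It passed the filter on low counts only through that last group, and untreated KO lay near the floor of 3 counts. Its counts are therefore given without a fold or a test.

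**Figure D3:**
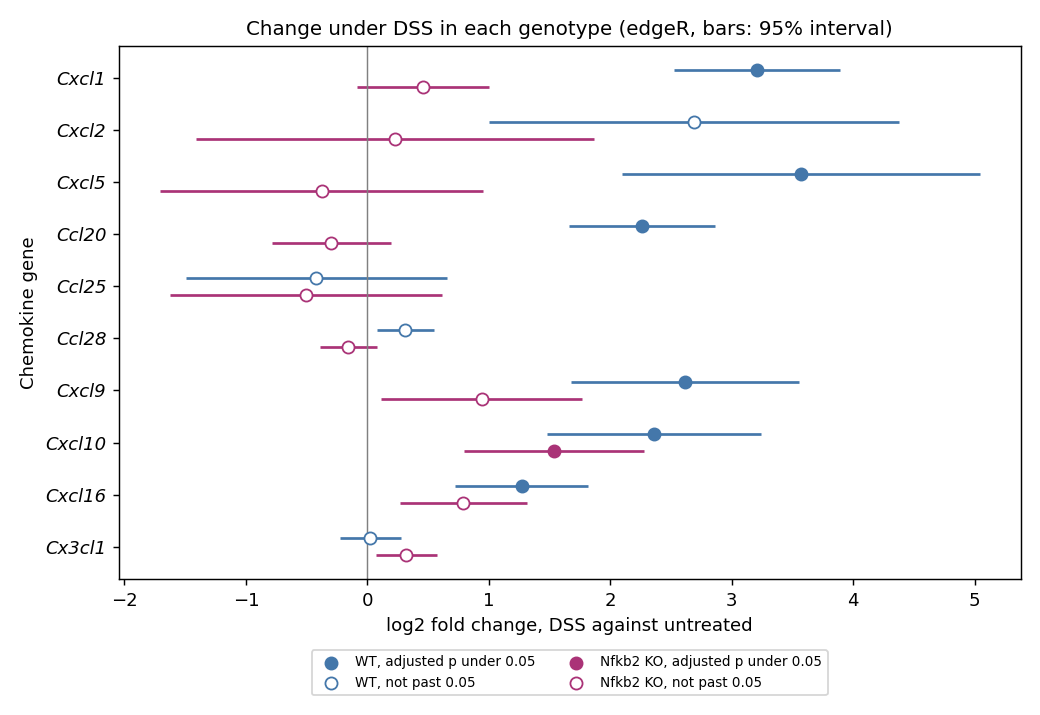
Log2 fold change under DSS in WT and in KO for each chemokine, with 95% intervals (edgeR). Cxcl1 (3.21 in WT, 0.46 in KO), Cxcl5 (3.57 and -0.38) and Ccl20 (2.26 and -0.30) were called in the interaction, whereas Cxcl10 (2.36 and 1.54) was called in both.

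Cxcl10 was the only 1 of the 10 chemokines called higher in all 4 comparisons of 2 groups. Cxcl10 (ENSMUSG00000034855.12; chr5:92346638-92348889, minus strand) attracts Cxcr3-positive T cells, and its exons overlap those of Art3 on the other strand. It was at 1.75, 0.820 and 3.55 CPM in untreated WT and at 8.81, 10.3 and 12.7 CPM in WT under DSS. It was at 7.14, 10.6 and 13.7 CPM in untreated KO and at 22.6, 34.4 and 34.4 CPM in KO under DSS. Untreated WT was lowest and KO under DSS highest, and the 2 groups between them overlapped.

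Cxcl10 rose 5.13-fold under DSS in WT (log2 fold change 2.36 with SE 0.41, edgeR adjusted p = 0.00230) and 2.90-fold in KO (1.54 with SE 0.35, edgeR adjusted p = 0.0219). It was higher in KO by 2.35 on the log2 scale untreated (SE 0.41, edgeR adjusted p = 0.00483) and by 1.53 under DSS (SE 0.35, edgeR adjusted p = 0.0289). The interaction was -0.82 (SE 0.53, 95% interval -1.96 to 0.32, edgeR adjusted p = 0.674). Leaving out 1 sample ended the DSS call in KO in 4 of 12 fits (untreated KO 1 or 2, KO DSS 2 or 3) and the genotype call under DSS in 5 (KO DSS 2 or 3, or any WT DSS sample), and the untreated genotype call was lost with only those 2 groups in the fit (edgeR adjusted p = 0.0618).

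Cxcl9 (ENSMUSG00000029417.9; chr5:92321347-92328079, minus strand), the neighbour of Cxcl10 and also a ligand of Cxcr3, was at 1.46, 1.97 and 0.618 CPM in untreated WT and at 8.66, 10.5 and 5.71 CPM in WT under DSS. It was at 4.31, 5.61 and 3.33 CPM in untreated KO and at 6.36, 9.79 and 9.28 CPM in KO under DSS. Untreated WT again lay below the other groups, and the 2 DSS groups overlapped.

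Cxcl9 rose 6.13-fold under DSS in WT (log2 fold change 2.62 with SE 0.44, edgeR adjusted p = 0.00167). Its change in KO was 0.94 (SE 0.39, edgeR adjusted p = 0.237), and the interaction of -1.67 (SE 0.58) did not pass (edgeR adjusted p = 0.251). In untreated KO it was higher by 1.70 (SE 0.44, edgeR adjusted p = 0.0489), a call that was lost in all 12 fits that left out 1 sample and with only those 2 groups in the fit (edgeR adjusted p = 0.175). Under DSS the genotypes differed by 0.03 (95% interval -0.78 to 0.84, edgeR adjusted p = 0.987).

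Cxcl11, another ligand of Cxcr3, lies next to Cxcl10 at chr5:92359544-92365485. It had at most 6 counts in untreated WT, 8 in DSS-treated WT and 3 in untreated KO, and 24 to 49 counts in each sample of DSS-treated KO. It passed the filter on low counts only through that last group, and untreated KO lay at the floor of 3 counts, so its counts are given without a fold or a test.

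T cell markers (12 genes, 9 tested) summed to 12.7 to 29.5 CPM in untreated WT, 29.2 to 40.7 in DSS-treated WT, 54.3 to 67.3 in untreated KO and 57.8 to 96.4 in DSS-treated KO. Of the 9, 2 were called higher for DSS in WT, 3 in KO against WT untreated and 1 in that comparison under DSS, and for DSS in KO 0 were called in edgeR (0 with an unadjusted p under 0.05). Macrophage and dendritic cell markers (13 genes, 11 tested) summed to 74.5 to 93.6, 208 to 219, 132 to 146 and 204 to 224 CPM in the same order of groups, with Adgre1 at 0 in untreated WT. Cd14, which epithelial cells can also express, made up most of that sum. Of the 11, 4 were called higher for DSS in WT, 1 for DSS in KO, 2 in KO against WT untreated and 1 in that comparison under DSS. Beside the counts of both lists, the shares of all tested genes called higher were 2.80%, 1.88%, 1.72% and 1.77% in the same order of comparisons. Lyz2, a lysozyme of myeloid cells, was called higher in all 4 like Cxcl10, with group means of 1.49, 7.08, 6.23 and 25.5 CPM. Csf1r (0.383, 4.37, 2.86 and 10.8 CPM) and C1qa (0.364, 1.94, 1.96 and 5.74 CPM) had the same lowest and highest groups, and their differences between genotypes under DSS did not pass (edgeR adjusted p = 0.309 and 0.234). Other markers of the list went otherwise. Cd14 (71.5, 176, 115 and 136 CPM) and Itgam (1.84, 5.72, 1.90 and 3.51 CPM) were highest in WT under DSS. Mrc1 (3.85, 4.27, 2.19 and 2.11 CPM) was lowest in KO under DSS. The interaction of Cd14 was negative (-1.05 on the log2 scale, edgeR adjusted p = 0.00119). The part of these cells in the chemokine levels was not tested.

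**Figure D4:**
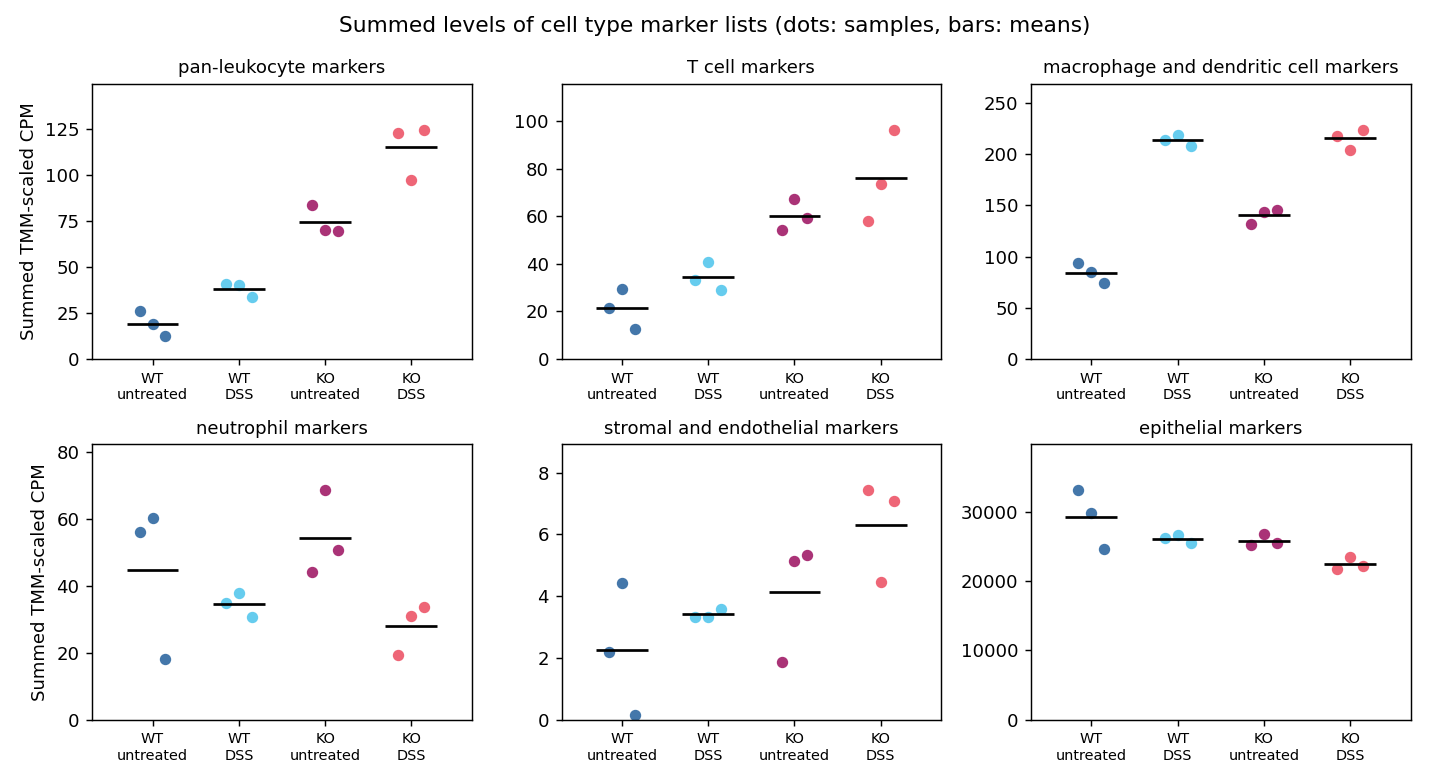
Summed TMM-scaled CPM of 6 marker lists per sample (dots) with group means (bars). Pan-leukocyte markers are lowest in untreated WT (12.5 to 25.9) and highest in KO under DSS (97.4 to 125), whereas neutrophil markers, mostly Ly6g, range from 18.2 to 68.6 over all samples.

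Cxcl16 and Cx3cl1, the membrane-anchored pair, differed from each other. Cxcl16 (ENSMUSG00000018920.10; chr11:70453983-70459984, minus strand) was at 5.39, 5.91 and 6.34 CPM in untreated WT and at 18.5, 12.8 and 11.3 CPM in WT under DSS. It was at 10.2, 11.2 and 11.9 CPM in untreated KO and at 23.7, 15.9 and 18.3 CPM in KO under DSS. Within each genotype the untreated samples lay below the DSS samples.

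Cxcl16 rose 2.41-fold under DSS in WT (log2 fold change 1.27 with SE 0.26, edgeR adjusted p = 0.00696). The change in KO was 0.79 (SE 0.24, edgeR adjusted p = 0.0958) and the interaction -0.48 (95% interval -1.23 to 0.27, edgeR adjusted p = 0.737). The untreated genotype difference of 0.92 (SE 0.26, edgeR adjusted p = 0.0676) passed in DESeq2 (adjusted p = 0.0406). Its exons overlap those of Zmynd15 on the other strand, and reads there cannot be assigned without strand information.

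Cx3cl1 (ENSMUSG00000031778.11; chr8:94772009-94782427, plus strand) was at 174, 169 and 154 CPM in untreated WT and at 158, 166 and 183 CPM in WT under DSS. It was at 177, 159 and 143 CPM in untreated KO and at 202, 221 and 175 CPM in KO under DSS. No comparison of 2 groups separated its samples. The DSS change was 0.03 in WT (95% interval -0.23 to 0.28, edgeR adjusted p = 0.957) and 0.32 in KO (0.07 to 0.57, edgeR adjusted p = 0.175), and both intervals lay between -0.23 and 0.57 on the log2 scale.

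The proteases that cut membrane-anchored and other chemokines were abundant and none was called. Adam10 had group means of 143 to 166 CPM, Adam17 of 62.6 to 65.9 CPM, and Dpp4, which trims the ends of several chemokines, of 80.9 to 114 CPM. All 3 were tested, 0 passed in any of the 5 comparisons, and 1 had an unadjusted p under 0.05 between untreated genotypes.

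Ccl28 and Ccl25, which serve homing of lymphocytes to mucosa, were not called in any comparison. Ccl28 (ENSMUSG00000074715.2; chr13:119623819-119654359, plus strand) was at 355, 305 and 266 CPM in untreated WT and at 396, 366 and 387 CPM in WT under DSS. It was at 394, 349 and 349 CPM in untreated KO and at 350.4, 309 and 319.6 CPM in KO under DSS. WT under DSS lay above untreated WT and above KO under DSS without overlap.

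The DSS change of Ccl28 was 0.31 in WT (SE 0.11, 95% interval 0.08 to 0.55, edgeR adjusted p = 0.130) and -0.16 for KO (SE 0.11, edgeR adjusted p = 0.562), with an interaction of -0.47 (95% interval -0.80 to -0.14, edgeR adjusted p = 0.219). It passed in WT only without untreated WT sample 1 (0.42, edgeR adjusted p = 0.0330). Its 95% intervals in the 5 comparisons lay between -0.80 and 0.55 on the log2 scale.

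Ccl25 (ENSMUSG00000023235.12; chr8:4325210-4360020, plus strand) is best known from the small intestine. It was at 7.72, 6.07 and 3.09 CPM in untreated WT and at 5.01, 4.0004 and 3.59 CPM in WT under DSS. It was at 2.02, 3.30 and 4.99 CPM in untreated KO and at 0.884, 2.67 and 3.60 CPM in KO under DSS. All 4 groups overlapped, and the 4 differences of 2 groups lay between -0.42 and -0.79 on the log2 scale with SE of 0.50 to 0.52 (edgeR adjusted p = 0.553 to 0.770). Its exons overlap Elavl1 on the other strand, which limits what these low counts show. Of 8 small intestinal markers Lct, Apoa4 and Apoa1 were at 0 in all samples. The list summed to 42.0 to 51.2 CPM in untreated and 7.59 to 11.3 in DSS-treated WT, and to 17.9 to 21.1 in untreated and 8.73 to 9.93 in DSS-treated KO. Most of that sum in untreated WT was Alpi, an alkaline phosphatase of the brush border, at 41.1 ± 4.65 CPM (SD, n = 3), which fell by 3.06 on the log2 scale under DSS in WT and by 1.17 in KO (edgeR adjusted p = 1.23e-05 and 0.0317). The part of cells with these markers in the Ccl25 level was not tested.

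**Figure D5:**
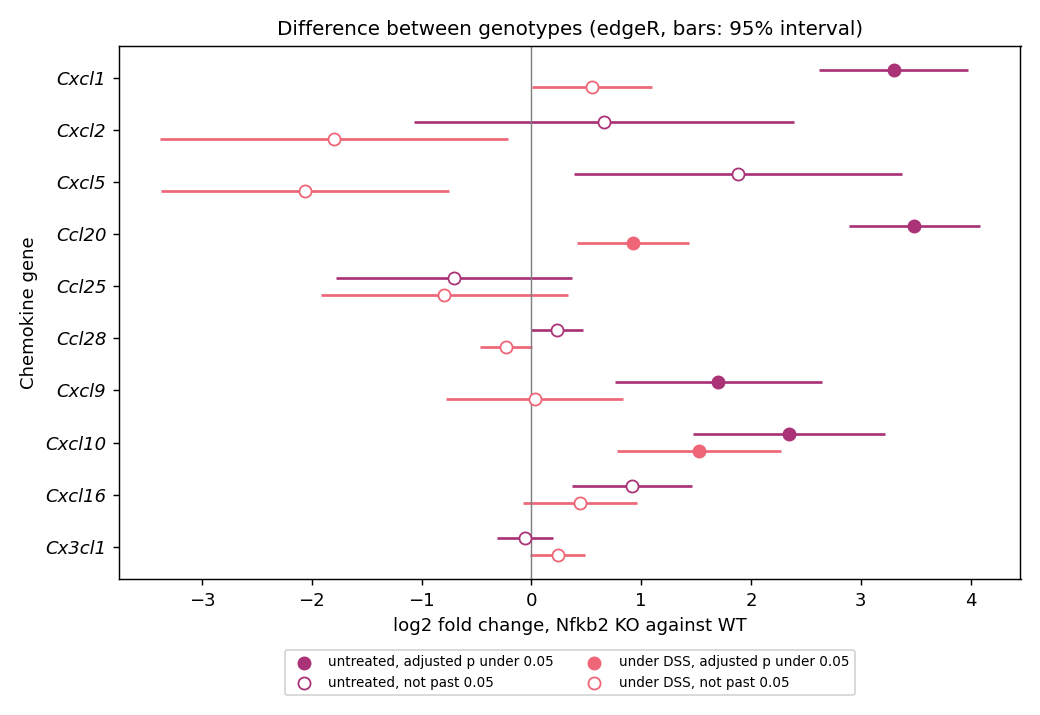
Log2 fold change of KO against WT, untreated and under DSS, for each chemokine with 95% intervals (edgeR). Ccl20 (3.49), Cxcl1 (3.30), Cxcl10 (2.35) and Cxcl9 (1.70) were called untreated, Ccl20 (0.93) and Cxcl10 (1.53) under DSS.

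Receptors of these chemokines had few counts. Of 18 listed 6 were tested and 0 were called in any comparison (unadjusted p under 0.05 for 2 under DSS in WT and 2 between untreated genotypes, and for 0 in the other 3). Ccr6, the receptor of Ccl20, had at most 2 counts in a sample, and Cxcr2 3 to 8 counts in untreated WT and at most 3 in the other groups. Cxcr3 had 0 to 1 counts in untreated WT, 0 to 15 in DSS-treated WT, 4 to 14 in untreated KO and 16 to 23 in DSS-treated KO.

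The receptors of the membrane-anchored ligands varied widely within groups. Cxcr6 had 7 to 15 counts in untreated WT, 10 to 55 in DSS-treated WT, 24 to 62 in untreated KO and 3 to 47 in DSS-treated KO. Cx3cr1 had 0 to 11, 14 to 21, 4 to 32 and 29 to 51 counts in the same order. Ccrl2, an atypical receptor that binds chemerin, had group means of 5.00, 11.1, 9.69 and 24.2 CPM and rose under DSS in KO (log2 fold change 1.32 with SE 0.31, edgeR adjusted p = 0.0296). It was the 1 gene called of 3 tested atypical receptors, where 3.92% of all tested genes were called under DSS in KO.

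Of 27 other chemokine ligands 6 passed the filter and 6 were at 0 in all samples. Among them was Ccl6, an inflammatory CC chemokine of rodents. Its level was 110 ± 25.5 CPM in untreated and 189 ± 10.8 in DSS-treated WT, and 198 ± 18.3 in untreated and 224 ± 21.4 in DSS-treated KO (SD, n = 3). It rose under DSS in WT (log2 fold change 0.78 with SE 0.15, edgeR adjusted p = 0.00438) and was higher in untreated KO (0.85, edgeR adjusted p = 0.00500), so its level, like those of Cxcl1 and Ccl20, was lowest in untreated WT.

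Among 15 tested receptors and adaptors for cytokines and microbial products that act upstream of chemokine genes, 1 was called higher under DSS in each genotype. Of all tested genes 2.80% were called higher under DSS in WT and 1.88% in KO, so 1 of 15 is too few to read as a trait of the list. Tnfrsf1b, a receptor of TNF, rose in WT (log2 fold change 1.07 with SE 0.17, edgeR adjusted p = 0.00105). Myd88, an adaptor of Toll-like and IL-1 receptors, rose in KO (0.61 with SE 0.12, edgeR adjusted p = 0.0118). None of the 15 was called between genotypes or in the interaction in edgeR (2, 4 and 3 of them had an unadjusted p under 0.05 between untreated genotypes, between genotypes under DSS and in the interaction).

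Of 10 tested transcription factors of chemokine genes, 3 were higher and 1 lower under DSS in WT (2.80% and 3.50% of all tested genes). Under DSS in KO, 5 were higher and 1 lower (1.88% and 2.04% of all tested genes). Nfkbiz, a nuclear cofactor of NF-kB, rose by 1.26 on the log2 scale in WT (edgeR adjusted p = 5.15e-06) and by 0.44 in KO (edgeR adjusted p = 0.0390), with an interaction of -0.82 (SE 0.16, edgeR adjusted p = 0.0119). Like Cxcl1, Ccl20 and Cxcl5 it thus had a negative interaction, but unlike Cxcl1 and Ccl20 it was not higher in untreated KO (-0.36, edgeR adjusted p = 0.102).

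Irf1, a factor of the interferon response, rose in both genotypes (0.52 in WT and 0.53 in KO, edgeR adjusted p = 0.00580 and 0.00981), as did the epithelial factor Elf3 (0.38 and 0.43, edgeR adjusted p = 0.0279 and 0.0204). Bcl3, a further cofactor of NF-kB, rose in KO (1.08, edgeR adjusted p = 0.0166) and under DSS exceeded its WT level (1.02, edgeR adjusted p = 0.0277). Cdx2, an intestinal identity factor, fell by 1.52 in WT and by 0.76 in KO (edgeR adjusted p = 9.21e-06 and 0.00727).

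The genes whose log2 CPM followed each chemokine most closely over the 12 samples, among 8861 genes whose log2 CPM averaged at least 3, were taken as a description. Each is among the 2 highest of 8861 values over only 12 samples, so the selection itself raises r, and no relation was tested. For Ccl20 they were Best2 (r = 0.981) and Ubd (0.965), and for Cxcl1 B3gnt7 (0.979) and Adh1 (0.964). For Cxcl10 they were Camk2b and B3gnt7 (both 0.950), so B3gnt7 was among the 2 closest genes of both Cxcl1 and Cxcl10. For Cxcl9 they were Slc46a1 (0.973) and Tm9sf4 (0.964), for Cxcl16 Gas6 (0.945) and Nr1d1 (0.941), and for Ccl28 Setdb1 (0.937) and Spcs2 (0.898). Cxcl2 (Dlgap4, 0.907, and Fbxl18, 0.895) and Cxcl5 (Atp6v0a1, 0.904, and Smpd3, 0.888) gave lower values. Ccl25 was followed by Cldn7 (0.939) and Mvb12a (0.932), and Cx3cl1 by Pigs (0.916) and Tmem229b (0.915).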

How the data were processed

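RNA sequencing of 12 samples gave 1 table of read counts per gene for each sample. The deposited values are raw counts, made per the submitters' processing notes with STAR 2.5.2b and featureCounts 1.5.0 on GRCm38 (mm10). Libraries were prepared per the labels by a SMART-seq2 protocol with Nextera XT, a method that keeps no strand information or molecular identifiers, so the floors cover counting error only. Symbols came from GENCODE M21 by ID without version (46005 of 46517 matched).

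Genes were filtered with filterByExpr (12522 kept, 99.8% of counts), scaled by TMM and tested with edgeR 4.0.16 in R 4.3.3 (quasi-likelihood F test, two-sided, 1 coefficient per group over 12 samples, Benjamini-Hochberg over all genes, threshold 0.05). SE is the log2 fold change divided by the square root of F. Correlations used log2 CPM with a prior count of 2. Alternatives were other size factors, no filter, a replicate block, 2-group fits, DESeq2 1.42.0 and each sample left out.

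The chemokines and lists were chosen with earlier results of these data known. Named genes were the 10 chemokines, up to 6 called genes per list (3 most abundant where none passed), Nfkb2 and 2 closest genes per chemokine. Other genes were named for their role, after their values were seen, as was the kappa B consensus. A result that the rule selects is not reported here. The replicate numbers in the titles are where any pairing comes from. Same-numbered deviations correlated at 0.204, 0.106 and 0.127 for DSS in KO, and not above 0.1 for all 3 numbers in the other comparisons.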

Additional observations from a re-analysis of the deposited data

Results flagged for a closer look

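The DSS change differed between genotypes for 3 of the 10 chemokines in the test of the interaction. On the log2 scale the change in KO minus that in WT was -2.56 for Ccl20, -2.75 for Cxcl1 and -3.94 for Cxcl5. The Cxcl5 value rests on 2 to 7 counts in untreated WT, and its call was lost in 10 of 12 fits that left out 1 sample. The untreated KO samples overlapped WT under DSS for Cxcl1 and lay above it for Ccl20, whereas Cxcl5 in KO was below WT under DSS in both states. Pan-leukocyte markers were also higher in untreated KO than in untreated WT (69.4 to 83.9 against 12.5 to 25.9 CPM summed). Sums of B and plasma cell markers (2.14 to 5.12 in untreated KO, 3.09 to 10.2 in untreated WT) and of neutrophil markers (44.2 to 68.6 and 18.2 to 60.2) overlapped. The part of leukocytes in the chemokine values was not tested.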

How the results depend on the processing

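No call of the 10 chemokines changed direction under other size factors, no filter, the replicate block, 2-group fits or DESeq2. The count called was 6 for DSS in WT (6 to 7 with 1 sample left out), 1 for DSS in KO (0 to 1), 4 for untreated genotypes (3 in every such fit), 2 for genotypes under DSS (0 to 2) and 3 for the interaction (2 to 3). With only the 2 untreated groups in the fit, the count of 4 fell to 2, because Cxcl9 and Cxcl10 no longer passed. With the replicate block, the count for genotypes under DSS was 1 without Ccl20 (edgeR adjusted p = 0.0601) and that for the interaction 2 without Cxcl5 (0.0878), and the block changed no other call. Between genotypes the samples share only a number, with same-numbered deviations correlating at -0.175 to -0.010. The interaction also rests on the DSS changes within genotypes, where these correlations were 0.014 to 0.128 in WT and 0.106 to 0.204 in KO.

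Signs that changed when 1 sample was left out all belonged to values that were not called. They were the interaction of Ccl25 (-0.51 to 0.29), the DSS change in KO of Cxcl2 (-0.46 to 0.81) and Cxcl5 (-0.83 to 0.050), the difference between genotypes under DSS of Cxcl9 (-0.18 to 0.24), and for Cx3cl1 the DSS change in WT (-0.037 to 0.071) and the untreated difference (-0.14 to 0.019). The calls of Ccl20 and Cxcl1 for DSS in WT, untreated genotypes and the interaction held in all 12 such fits. Depth limits the baseline of several changes: untreated WT samples had 6 to 7 counts of Cxcl1, 4 to 9 of Cxcl2, 2 to 7 of Cxcl5, 4 to 12 of Cxcl9 and 5 to 23 of Cxcl10.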

Other observations

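Of the 10 chemokines, 5 lie in 2 stretches of chromosome 5. Cxcl5, Cxcl1 and Cxcl2 lie between positions 90759360 and 90905938, and in the same stretch Ppbp and Cxcl15 had 0 counts in every sample, Cxcl3 at most 1 and Pf4 at most 5. In the second stretch, Cxcl9, Cxcl10 and Cxcl11 follow each other from 92321347 to 92365485 on the minus strand. Cxcl9 and Cxcl10 exceeded the floor of 3 counts in every sample. Cxcl11 did so in every sample only in KO under DSS (24 to 49 counts).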
